A study of Mus musculus with 17 samples.

Results

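The neuromuscular synapse organizers were followed in the extensor digitorum longus (EDL), a fast muscle of the lower hind limb, of 17 mice aged 22 or 23 months. The set was given by symbol and holds 10 genes of the 36172 rows of the deposited table: Agrn, Lrp4, Musk, Dok7, Rapsn, Colq, Ache, Lamb2, Etv5 and Prkar1a. Each of the 10 passed the filter on low counts, which kept 13965 genes. In all, 10 animals, 5 females and 5 males, carried the empty vector, and 7 animals, 4 females and 3 males, carried the Hand2 vector. Hand2 is a transcription factor known from sympathetic neurons. The labels give no strain, no route and no kind of vector, and an animal is 1 library. At 22 months there were 2 females and 1 male with the empty vector and 3 females and 1 male with the Hand2 vector. At 23 months the empty vector had 3 females and 4 males and the Hand2 vector had 1 female and 2 males, so age was not balanced over vectors. Libraries held 19181208 to 30942818 estimated reads, with a median of 26091234.

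At the neuromuscular junction the motor nerve releases agrin into the basal lamina that covers the muscle fibre. Agrin binds the receptor LRP4, which switches on the kinase MuSK with the help of its adaptor DOK7, and the scaffold rapsyn then holds acetylcholine receptors in dense clusters. Acetylcholinesterase, anchored in the cleft by its collagen tail ColQ, ends each signal, and laminin beta 2 marks the synaptic part of the lamina. The transcription factor ETV5 acts in the nuclei beneath the synapse, and PRKAR1A is a regulatory subunit of protein kinase A, which is anchored near the receptors. Nuclei beneath the synapse are a small share of a whole muscle. In such bulk RNA, fewer cells of a type and less RNA per cell cannot be told apart.

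The upstream sequences of 3 members are shown because these genes varied together across animals, as described further on: Musk with Dok7, and Musk with Etv5. RefSeq windows (GRCm38.p6) matched 7 of the 10 members; Lrp4, Rapsn and Colq had no entry. Each sequence is the 250 bases before an annotated transcription start, written 5′ to 3′ on the gene's own strand. Capitals mark the E-box CAGCTG, which muscle transcription factors of the MyoD family bind.
Musk, chr4:58285712-58285961, plus strand: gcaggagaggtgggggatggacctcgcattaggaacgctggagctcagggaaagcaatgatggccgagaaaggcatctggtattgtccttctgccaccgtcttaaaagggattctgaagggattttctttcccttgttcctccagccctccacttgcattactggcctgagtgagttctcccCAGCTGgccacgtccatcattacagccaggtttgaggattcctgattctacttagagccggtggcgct
Dok7, chr5:35056516-35056765, plus strand: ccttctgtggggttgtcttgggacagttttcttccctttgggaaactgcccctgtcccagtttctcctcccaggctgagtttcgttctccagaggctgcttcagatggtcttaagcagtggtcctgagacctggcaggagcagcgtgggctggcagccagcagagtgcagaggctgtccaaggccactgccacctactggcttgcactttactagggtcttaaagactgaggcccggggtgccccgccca
Etv5, chr16:22439571-22439820, minus strand: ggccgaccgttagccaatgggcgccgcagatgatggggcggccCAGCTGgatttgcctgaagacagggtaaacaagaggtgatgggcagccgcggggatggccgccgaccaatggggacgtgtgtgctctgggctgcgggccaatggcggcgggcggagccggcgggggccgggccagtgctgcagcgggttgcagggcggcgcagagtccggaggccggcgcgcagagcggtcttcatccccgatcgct
Besides the E-box, which reads the same on both strands, the core of the N-box of synaptic genes (CCGGAA) was searched on both strands; no matches of the 2 motifs overlapped. The Musk window held 1 E-box, which began 68 bases before the start, and the Etv5 window held 1, which began 207 bases before the start. The Dok7 window shown held neither motif. Over the 15 windows of the 7 matched members, an E-box lay in 3 members (Musk, Etv5 and Prkar1a) and an N-box core in 1 member (Prkar1a). Of 32851 windows of the same length, 13% held the E-box and 12% the N-box core; counted by gene, as for the members, 14.7% and 13.6% of 27025 genes did in at least 1 window. A gene with more windows has more places for a match, and Prkar1a had 6 of the 15 windows. These matches describe letters in a window and nothing more.

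Levels are given as CPM, read counts divided by the library total after scaling by the trimmed mean of M values (TMM). Per kilobase of exon, Prkar1a was the most abundant member at 59.7 ± 4.72 CPM per kb (SD, n = 17), and Lamb2 followed at 49.6 ± 7.48 CPM per kb, with overlapping ranges. Rapsn reached 26.5 ± 2.48 CPM per kb and Ache 16.8 ± 2.84 CPM per kb. The middle of the order was Etv5 at 6.59 ± 0.618, Dok7 at 5.37 ± 1.95 and Colq at 5.0 ± 1.07 CPM per kb, and these 3 overlapped in range. Agrn (2.71 ± 0.275 CPM per kb), Lrp4 (1.87 ± 0.343) and Musk (1.29 ± 0.420) were lowest, so the kinase at the centre of the pathway had the least RNA per exon length. The ranges of Agrn and Lrp4, and of Lrp4 and Musk, overlapped. With the longest coding transcript as the length, Ache stood above Rapsn and Dok7 above Etv5, so those neighbours have no fixed order.

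The members also differed in how steady they were. The biological coefficient of variation, the spread between animals beyond counting error with vector and sex in the model, was 31% for Musk and 29.4% for Dok7, against a median of 14.3% over all genes tested. Lamb2 (9.61%), Rapsn (9.62%), Prkar1a (9.79%) and Agrn (10.0%) were the steadiest members, with Etv5 at 10.5%. Ache (16.0%), Lrp4 (16.9%) and Colq (17.8%) lay between. Across the 17 animals Musk ran from 2.19 to 8.15 CPM and Dok7 from 13.4 to 40.8 CPM.

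**Figure D1:**
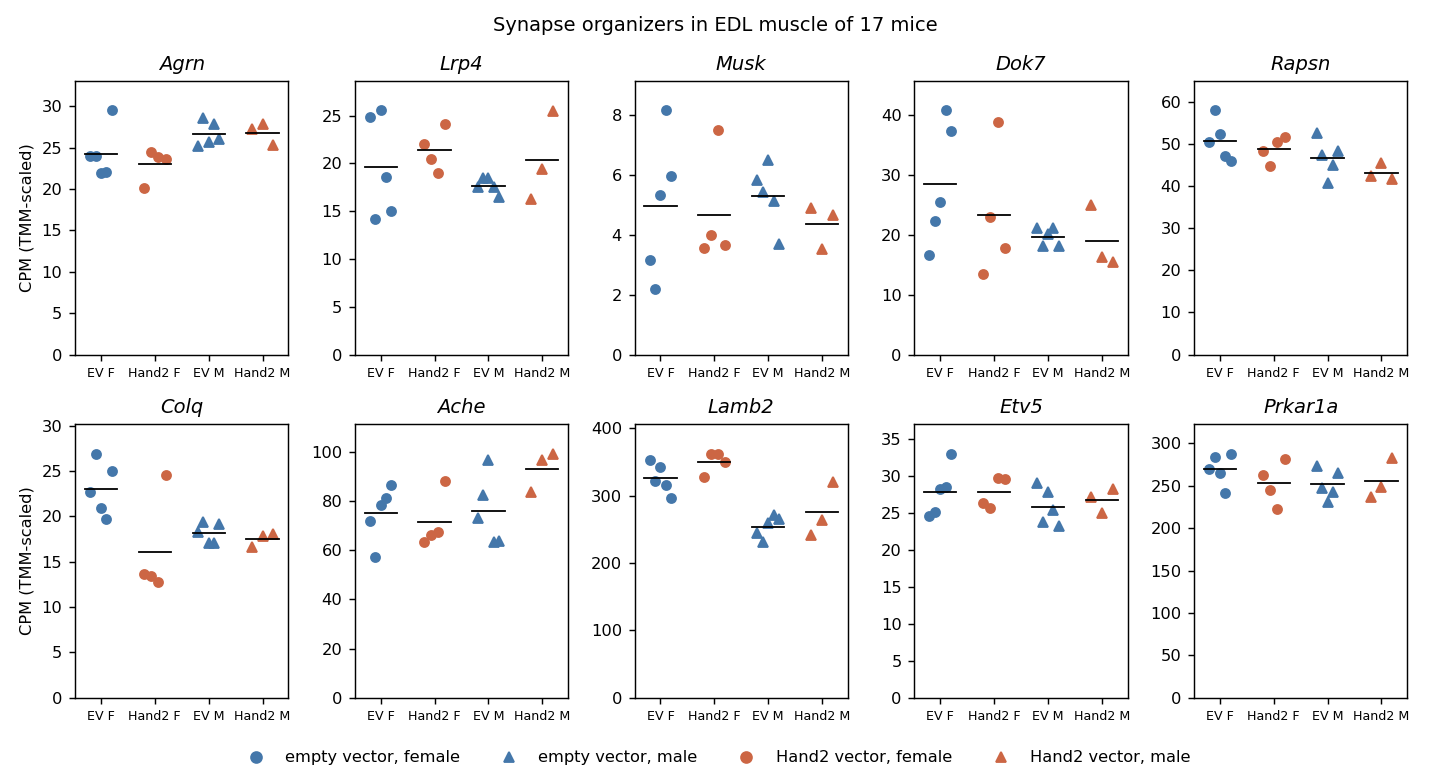
Scaled CPM of the 10 synapse organizers in each of 17 mice, by vector (EV, empty vector; Hand2, Hand2 vector) and sex (F, female; M, male); a point is 1 animal, a bar the group mean, and each axis starts at 0. Lamb2 is higher in females than in males under both vectors, and Musk and Dok7 spread most among females.

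The RNA of the vector's own gene was checked first. Hand2 was 0.440 ± 0.253 CPM (SD, n = 10) with the empty vector, between 0.0711 and 0.940 CPM, and 6.50 ± 9.30 CPM (n = 7) with the Hand2 vector, between 1.02 and 26.3 CPM. The groups did not overlap, but the fit gave an adjusted p of 0.124 (edgeR quasi-likelihood test, Benjamini-Hochberg). Of markers of other cells, the 10 neuron genes summed to about 1 to 3 CPM in each library and 2 of them passed the filter, so nerve markers were at or near 0. Agrn RNA in this tissue therefore does not measure the agrin that the motor nerve releases. Fast-fibre genes summed to at least 61490 CPM in each library. In the empty-vector group, 3 females of 23 months stood apart: replicates 3 and 4 had summed immediate-early genes of 1511 and 735 CPM, where the other animals lay between 189 and 351 CPM, and replicate 5 had summed interferon-response genes of 641 CPM.

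The comparison of vectors asks whether the Hand2 vector went with a different level of the synaptic machinery in old muscle. No member passed the test: 0 of 10 were called at an adjusted p under 0.05, as were 0 of all 13965 genes (a background of 0%). At an unadjusted p under 0.05 there was 1 member of 10, Colq, against 5.05% of all genes, and DESeq2 called 0 members and 1 gene. Of the members, 4 had higher and 6 had lower values with the Hand2 vector, with a median log2 fold change of -0.04, where the median of all genes was -0.004. For each member the 2 groups overlapped.

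Taking the pathway in order, the ligand Agrn ran from 21.9 to 29.5 CPM with the empty vector (median 25.5) and from 20.1 to 27.9 CPM with the Hand2 vector (median 24.5), a log2 difference of -0.04 ± 0.06 (SE). Its receptor Lrp4 ran from 14.2 to 25.6 CPM (median 18.0) and from 16.3 to 25.5 CPM (median 20.4), a difference of 0.16 ± 0.12. The kinase Musk ran from 2.19 to 8.15 CPM (median 5.37) and from 3.53 to 7.49 CPM (median 3.98), with a difference of -0.17 ± 0.23. These ranges lie almost on top of each other.

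The adaptor Dok7 ran from 16.6 to 40.8 CPM with the empty vector (median 21.1) and from 13.4 to 38.9 CPM with the Hand2 vector (median 17.8), a log2 difference of -0.18 ± 0.21. The scaffold Rapsn ran from 40.8 to 58.0 CPM (median 47.8) and from 41.8 to 51.8 CPM (median 45.4), a difference of -0.08 ± 0.06. The precision was unequal: the 95% interval of Rapsn ran from -0.20 to 0.04 and that of Musk from -0.65 to 0.30.

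In the cleft, Ache ran from 57.3 to 96.5 CPM with the empty vector (median 75.6) and from 63.4 to 99.2 CPM with the Hand2 vector (median 83.5), a log2 difference of 0.10 ± 0.11. Lamb2 ran from 231 to 353 CPM (median 284) and from 241 to 363 CPM (median 329), a difference of 0.11 ± 0.05 with an unadjusted p of 0.0559 in the edgeR fit. Colq, the collagen tail that anchors the esterase, ran from 17.1 to 26.9 CPM (median 19.5) and from 12.7 to 24.6 CPM (median 16.6). Its difference was -0.31 ± 0.12 on the log2 scale, with a 95% interval from -0.57 to -0.05, an unadjusted p of 0.0237 and an adjusted p of 0.921 (edgeR).

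Inside the fibre, Etv5 ran from 23.2 to 32.97 CPM with the empty vector (median 26.6) and from 25.0 to 29.7 CPM with the Hand2 vector (median 27.1), a log2 difference of 0.02 ± 0.07. Prkar1a ran from 231 to 288 CPM (median 265) and from 223 to 283 CPM (median 248), a difference of -0.04 ± 0.06. Both intervals, from -0.12 to 0.16 for Etv5 and from -0.16 to 0.08 for Prkar1a, include 0.

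**Figure D2:**
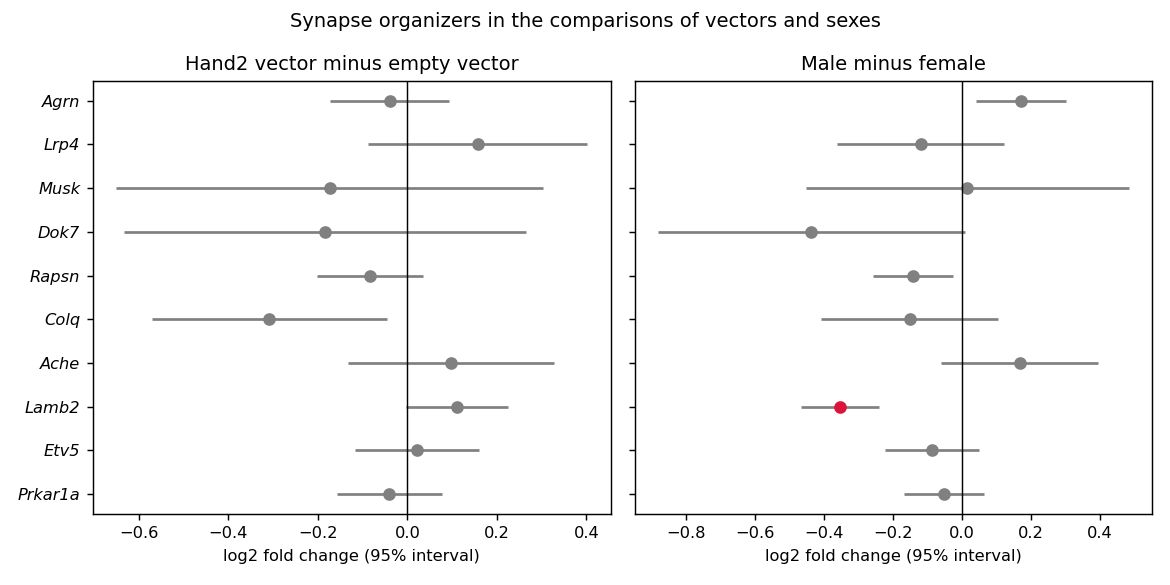
Log2 fold change of each synapse organizer with its 95% interval, for the Hand2 vector minus the empty vector (left) and for males minus females (right); a red point passed an adjusted p of 0.05. No member is red on the left, and Lamb2 at -0.35 is the one red point on the right.

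Colq in the animals of each age showed where its lower value lay. At 22 months the empty-vector animals had 22.7 and 26.9 CPM in 2 females and 19.2 CPM in 1 male, and the Hand2-vector animals had 13.6, 13.4 and 12.7 CPM in 3 females and 16.6 CPM in 1 male. At 23 months the 7 empty-vector animals ran from 17.1 to 25.0 CPM (median 19.4), and the 3 Hand2-vector animals had 24.6, 17.9 and 18.0 CPM. The 3 Hand2 females of 22 months were thus below the other 14 animals, and the groups overlapped at 23 months but not at 22 months. The log2 difference was -0.71 within 22 months (adjusted p = 0.143, edgeR) and 0.06 within 23 months, and it was -0.01 when those 3 females were left out together, a step chosen after their values were seen. The share of all genes whose groups do not overlap in cells this small was not counted.

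The 2 genes of the kinase complex, Musk and Dok7, had differences of opposite sign at the 2 ages, and in the other direction from Colq. Musk at 22 months was 3.17, 2.19 and 3.68 CPM with the empty vector and 3.56, 3.98, 7.49 and 4.88 CPM with the Hand2 vector. At 23 months it ran from 5.11 to 8.15 CPM with the empty vector (median 5.81, n = 7) and was 3.65, 3.53 and 4.66 CPM with the Hand2 vector. At 23 months the groups did not overlap, and among empty-vector animals the 2 ages did not overlap either. Its log2 difference between vectors was 0.74 within 22 months and -0.60 within 23 months. Within each age, 0 of 10 members and 0 of all genes were called between vectors. As for Colq, the share of all genes without overlap in these splits was not counted.

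Dok7 at 22 months was 16.6, 22.2 and 18.1 CPM with the empty vector and 13.4, 22.9, 38.9 and 25.0 CPM with the Hand2 vector. At 23 months it ran from 18.2 to 40.8 CPM with the empty vector (median 21.1, n = 7) and was 17.8, 16.2 and 15.5 CPM with the Hand2 vector. The differences were 0.39 and -0.56, with no call at either age. The 23-month groups did not overlap, while at 22 months the Hand2 animals spanned the control animals. Here too the share of all genes without overlap was not counted.

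A test of the difference between the ages was added after these values were seen. In this vector by age interaction (23 months minus 22 months), Colq gave 0.76 ± 0.18 on the log2 scale (95% interval 0.38 to 1.14, adjusted p = 0.0644, edgeR), Musk -1.33 ± 0.35 (-2.06 to -0.61, adjusted p = 0.081), Dok7 -0.96 ± 0.41 (adjusted p = 0.257) and Prkar1a 0.27 ± 0.10 (adjusted p = 0.188). By this test 0 of 10 members were called, against 0.38% of all genes (53 genes), and 4 of 10 had an unadjusted p under 0.05, against 16.4%. DESeq2 called Colq (adjusted p = 0.00649) and Musk (adjusted p = 0.0105), and limma-voom called Colq (adjusted p = 0.0336); these tools called 4.01% and 1.08% of all genes in this test. Single animals moved the Colq call: its adjusted p was 0.0472 without empty-vector replicate 5, 0.0226 without Hand2-vector replicate 4 and 0.223 without Hand2-vector replicate 5. Without the 3 Hand2 females of 22 months its interaction was 0.29 (adjusted p = 0.606).

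With 3 or 4 animals in 3 of the 4 cells, and sexes unequal between them, these differences rest on few animals. The sample titles of the Hand2-vector animals of 22 months carry no sex letter, while those of the other animals do. Within that vector, age and this naming cannot be told apart. Leaving out empty-vector replicates 3 to 5 moved the overall vector difference of Musk to 0.14 and of Dok7 to 0.08 and took the SD of Dok7 in empty-vector animals from 8.30 to 2.02 CPM. The part of the immediate-early and interferon genes of those animals in the result was not tested.

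**Figure D3:**
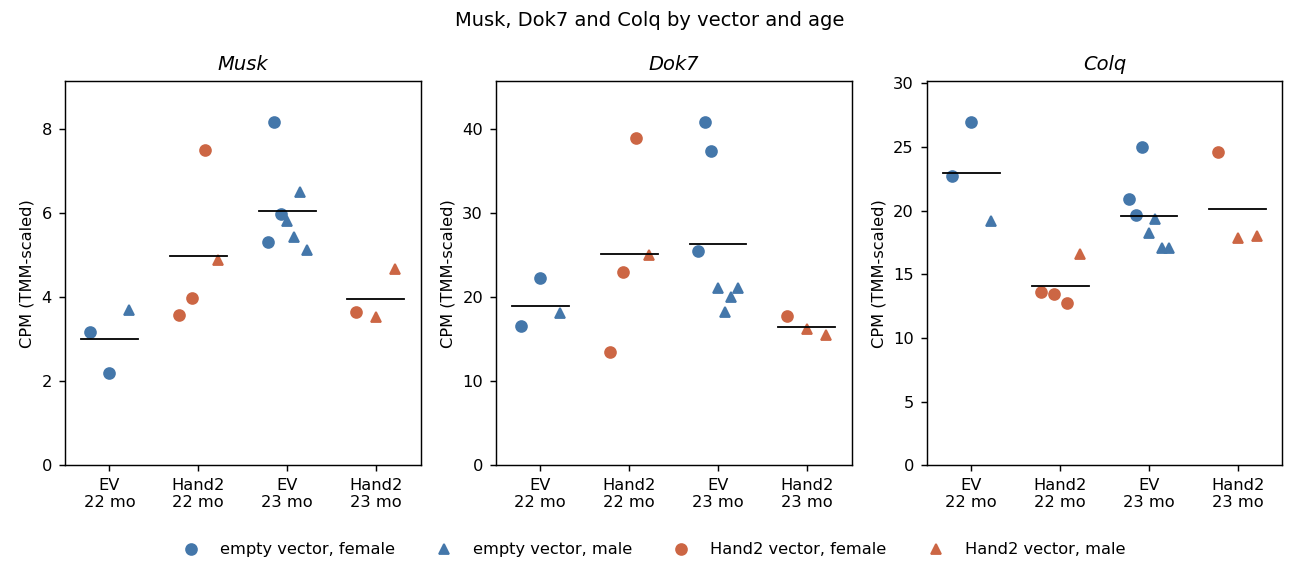
Scaled CPM of Musk, Dok7 and Colq in each animal by vector (EV, empty vector) and age in months, with circles for females, triangles for males and a bar for the mean. Musk is lower in empty-vector animals of 22 months than of 23 months, and the 3 Hand2 females of 22 months have the 3 lowest Colq values.

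The sexes were compared with vector in the model. Lamb2 was the 1 member of 10 called, and it was lower in males. Of all genes 5.63% were called (786 genes), 2.91% higher and 2.72% lower in males; with upper-quartile scaling the called genes split into 514 higher and 270 lower (65.6% higher, where the main scaling gave 51.7%), with a shift of the median of all genes of 0.03. An unadjusted p under 0.05 was found for 3 members (Agrn, Rapsn and Lamb2), against 21.6% of all genes. In males 3 members had higher and 7 had lower values.

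Lamb2, laminin beta 2, ran from 297 to 363 CPM in 9 females (median 343) and from 231 to 321 CPM in 8 males (median 262). Its means were 337 ± 22.8 CPM (SD, n = 9) and 262 ± 27.5 CPM (n = 8). The highest male, Hand2-vector replicate 7, lay inside the female range and the other 7 males lay below it. The log2 fold change was -0.35 ± 0.05 (95% interval -0.47 to -0.24, adjusted p = 0.000541, edgeR). It was between -0.40 and -0.32 when each animal was left out in turn, with a call each time, and it was -0.45 (adjusted p = 0.139) in animals of 22 months alone.

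The slow-fibre genes moved with sex too. Their summed level ran from 282 to 1456 CPM in females and from 135 to 326 CPM in males (7 of 7 genes measured, none at 0). Endothelial genes summed to a median of 384 CPM in females and 449 CPM in males, and Schwann-cell genes to 278 and 246 CPM. The part of fibre type or of other cells in the Lamb2 result was not tested.

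Agrn and Rapsn were less clear. Agrn ran from 20.1 to 29.5 CPM in females (median 23.8) and from 25.2 to 28.6 CPM in males (median 26.7), with a log2 difference of 0.17 ± 0.06 (adjusted p = 0.116, edgeR). One female, empty-vector replicate 5, lay above each male, and the other 8 females lay below each male. Without that animal the difference was 0.22 (adjusted p = 0.0227, edgeR; 4.36% of all genes called), and limma-voom with quality weights called it with all animals (0.21, adjusted p = 0.0374; 7.24% of all genes called).

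Rapsn ran from 44.8 to 58.0 CPM in females (median 50.5) and from 40.8 to 52.5 CPM in males (median 45.2), a log2 difference of -0.14 ± 0.06 (adjusted p = 0.14, edgeR). Dok7 ran from 13.4 to 40.8 CPM in females and from 15.5 to 25.0 CPM in males, a difference of -0.44 ± 0.21 (adjusted p = 0.238). For Dok7 the difference was -0.62 in animals of 23 months alone, a call (adjusted p = 0.0412, edgeR; 2.88% of all genes were called there), and -0.05 in animals of 22 months alone. Of the 4 females of 23 months, 3 are empty-vector replicates 3 to 5, and without those 3 the difference over both ages was -0.16 (adjusted p = 0.789). Colq ran from 12.7 to 26.9 CPM in females and from 16.6 to 19.4 CPM in males; its difference was -0.15 ± 0.12 with all animals and -0.38 (adjusted p = 0.0166, with 1.82% of all genes called) without the 3 Hand2 females of 22 months.

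The rest had intervals that include 0. The log2 difference of males minus females was -0.12 ± 0.12 for Lrp4, 0.01 ± 0.22 for Musk, 0.17 ± 0.11 for Ache, -0.09 ± 0.06 for Etv5 and -0.05 ± 0.06 for Prkar1a. Musk was the member whose sign depended on single animals in this comparison.

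Whether the vector went with a different change in males and females was tested directly. Of the 10 members 0 were called, as were 0% of all genes, and 0 members had an unadjusted p under 0.05, against 3.39% of all genes. DESeq2 called no member either, and neither did limma-voom or a fit with an age term. Colq gave the largest value among the members, 0.47 ± 0.23 (male minus female), and Ache followed with 0.37 ± 0.20. With limma-voom Colq was 0.54 (unadjusted p = 0.0114) and Ache 0.42 (unadjusted p = 0.0352), where 658 of 13965 genes were under 0.05. With an age term Ache was 0.31 (unadjusted p = 0.0463, edgeR), where 414 of 13965 genes were under 0.05. Without Hand2-vector replicate 5 Colq was 0.74 (unadjusted p = 5.38e-05, adjusted p = 0.375, edgeR), and without the 3 Hand2 females of 22 months it was -0.15 and Ache 0.06. Without empty-vector replicates 3 to 5, Ache was 0.16, Colq 0.58 (unadjusted p = 0.048, adjusted p = 0.986, edgeR) and Musk -1.08 (unadjusted p = 0.0189, adjusted p = 0.986). In that fit 2 of 10 members had an unadjusted p under 0.05, as had 553 of 14060 genes. Ache was 83.5, 96.5 and 99.2 CPM in the 3 Hand2 males and ran from 63.3 to 96.5 CPM in the 5 empty-vector males. In the 4 Hand2 females it ran from 63.4 to 88.1 CPM. Of the Hand2 animals, 2 of the 3 males but 1 of the 4 females were 23 months old. By age, Ache ran from 63.4 to 83.5 CPM at 22 months and from 88.1 to 99.2 CPM at 23 months with the Hand2 vector. With the empty vector it ran from 57.3 to 71.9 CPM and from 63.3 to 96.5 CPM.

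How the members varied together was measured on log2 CPM with vector and sex means removed. Of 45 pairs, 2 were called after adjustment over the 45. Musk and Dok7 had Pearson's r = 0.74 (permutation p = 0.0008, adjusted p = 0.0319) and Spearman's rho = 0.79 over 17 animals. The r was 0.75 without the 2 animals farthest from the median of Musk, 0.83 in 9 females and 0.43 in 8 males. Colq and Prkar1a had r = 0.71 (permutation p = 0.00142, adjusted p = 0.0319) and rho = 0.73, with 0.59 without the 2 farthest animals, 0.81 in females and 0.63 in males. Among the 13964 other genes, Dok7 was at rank 224 in r with Musk, and Prkar1a at rank 74 in r with Colq. Such r values were thus not particular to the members, and the share of all gene pairs called was not computed.

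Musk and Etv5 came next, with r = 0.66 (permutation test, adjusted p = 0.0597), and the pair was called by Spearman's rho (adjusted p = 0.0151). With vector and sex left in the values, 0 pairs were called. Of the 45 pairs 25 were positive and 20 negative, with a median r of 0.03, so the 10 genes did not move as one. Agrn, as RNA of the muscle tissue, and Lrp4 had r = -0.46 (permutation p = 0.0631, adjusted p = 0.243), and -0.50 (permutation p = 0.0391, adjusted p = 0.195) with vector and sex left in. Agrn and Musk had r = 0.01 and Lrp4 and Musk 0.03. Rapsn and Musk had r = -0.45, and Musk and Prkar1a had the lowest value of any pair, -0.55. Musk and Dok7 share the age pattern described above. Colq and Prkar1a share one in the other direction, with vector by age interactions of 0.76 and 0.27. Age was not removed from the values of any pair.

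**Figure D4:**
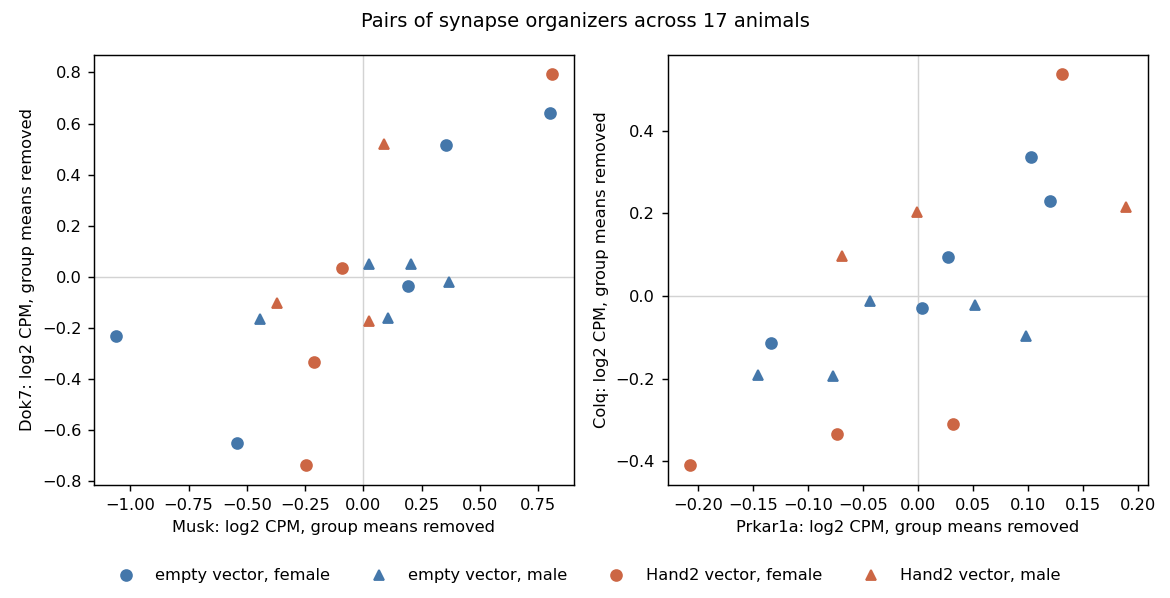
Log2 CPM of Dok7 against Musk (left) and of Colq against Prkar1a (right), with vector and sex means removed, in 17 animals. The points rise together, with r = 0.74 on the left and 0.71 on the right.

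Each of 4 members was set against the 13964 other genes to name genes of most similar pattern (up to 3) over the 17 animals. For the ligand Agrn they were Apol9b (r = 0.90), Mndal (0.85) and Sp100 (0.83), which are all known as interferon-induced genes. Agrn was highest in empty-vector replicate 5, at 29.5 CPM, the animal whose interferon-response genes summed to 641 CPM where the other 16 animals lay between 55.8 and 117 CPM. Without the 2 animals farthest from the median, r fell to 0.70, 0.58 and 0.67. Apol9b averaged 0.607 CPM, so its values rest on few reads.

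For Musk, similar genes were Ankrd9 (r = 0.90) and Asxl2 (0.90), and Dok7 was at rank 224 of 13964. For Rapsn they were Socs6 (0.90), Hsf1 (0.89) and Ccdc107 (0.85). For Ache they were Stx17 (0.88), Fam131a (0.87) and Itm2a (0.87). These likenesses describe 17 libraries, whose depth was scaled. The animals differ in slow-fibre genes and in age, neither of which was removed, and no test was made of the likenesses.

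**Figure D5:**
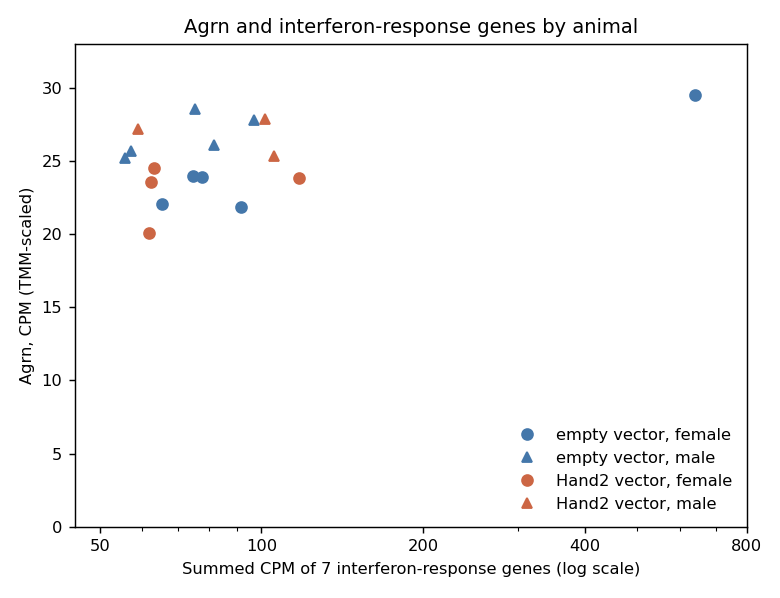
Agrn in scaled CPM against the summed CPM of 7 interferon-response genes (log axis) in 17 mice. Empty-vector replicate 5 sits alone at 641 and 29.5 CPM, and the other 16 animals lie between 55.8 and 117 CPM on the lower axis.

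Other genes of the pathway were taken from lists, which were chosen with earlier results of these data known. Calls in these lists stand beside 0% of all genes called between vectors and 5.63% between sexes. Of 33 further genes of MuSK signalling, 30 were tested; 0 were called between vectors (median log2 fold change -0.006) and 1 was lower in males, Hgs, an endosomal sorting protein, at -0.27 ± 0.07 (adjusted p = 0.0308, edgeR). Of 26 genes of the synaptic basal lamina, 22 had higher values with the Hand2 vector, against 48.3% of all genes. Their median log2 fold change was 0.10, with 0 called. With limma-voom 18 of 26 were higher (median 0.07), and in 22-month animals 15 of 26 (median 0.04). The summed level of the list had a median of 1497 CPM with the empty vector and 1445 CPM with the Hand2 vector, which is not the direction of the count. Among these genes the smallest p was that of the laminin chain Lama2 (0.21 ± 0.09, adjusted p = 0.921). Between the sexes 21 of the 26 had higher values in males (median 0.12), against 50.1% of all genes, and 2 were called higher and 1 lower. The laminin chain Lamc3 was 0.536 ± 0.276 CPM in females and 2.67 ± 1.10 CPM in males, and the collagen Col4a3 was 2.04 ± 0.526 and 3.17 ± 0.690 CPM. Butyrylcholinesterase (Bche), a relative of Ache, was 12.7 ± 1.29 and 8.58 ± 0.850 CPM. Lamb2 thus had a lower and Lamc3 a higher level in males.

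Of 22 genes that anchor the postsynaptic membrane, 17 had lower values with the Hand2 vector (median log2 fold change -0.03), and 0 were called between vectors. With upper-quartile scaling 13 of 22 were lower (median -0.02), and without empty-vector replicates 3 to 5 it was 16 of 22 (median -0.05). Utrophin (Utrn), which links the receptor clusters to actin, had the smallest p of these genes between vectors. It was 35.3 ± 3.54 CPM with the empty vector and 31.6 ± 1.05 CPM with the Hand2 vector (-0.16 ± 0.05, unadjusted p = 0.00548, adjusted p = 0.921, edgeR). Empty-vector replicates 3 to 5 had 38.0, 43.4 and 36.1 CPM. The other empty-vector animals lay between 31.7 and 37.0 CPM, and the Hand2-vector range was 29.7 to 32.8 CPM. Between the sexes 2 anchoring genes were called higher and 2 lower in males, among them Phldb2 (0.36 ± 0.07), a partner of the synaptic cytoskeleton. Of 18 genes around protein kinase A, 13 had lower values with the Hand2 vector (median -0.03), and 0 were called between vectors. That direction was not steady. Without empty-vector replicates 3 to 5, 7 of 18 were lower (median 0.01), and without the Hand2 females of 22 months 9 of 18 (median -0.005). Between the sexes 3 were called higher and 1 lower in males, with the phosphodiesterase Pde4a at 69.9 ± 10.1 CPM in females and 95.4 ± 8.06 CPM in males. Of 9 genes around synaptic ETS factors, 0 were called in either comparison.

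The 5 acetylcholine receptor subunit genes, which rapsyn clusters, had 0 calls in either comparison, with medians of -0.09 between vectors and -0.21 between sexes. The 15 denervation genes had lower values with the Hand2 vector in 15 of 15 cases (median log2 fold change -0.34) with 0 called; without empty-vector replicates 3 to 5 it was 13 of 15 (median -0.14), and without the Hand2 females of 22 months 13 of 15 (median -0.12). Myog, a muscle transcription factor that denervation raises, was 9.87 ± 8.31 CPM with the empty vector and 4.30 ± 1.88 CPM with the Hand2 vector (adjusted p = 0.921, edgeR). Its highest values were 24.7, 21.5 and 16.9 CPM in empty-vector replicates 3 to 5 and 11.9 CPM in replicate 2. The other empty-vector animals lay between 2.62 and 5.49 CPM, inside the Hand2-vector range of 1.90 to 7.58 CPM. In males 5 of the 15 were called lower, and 1 without empty-vector replicates 3 to 5. These counts are descriptions, to be read beside the medians of all genes, -0.004 between vectors and 0.001 between sexes. Of all genes 48.3% had higher values with the Hand2 vector and 50.1% had higher values in males. Without empty-vector replicates 3 to 5, the calls between sexes in the other lists came to 0 for MuSK signalling, 2 for the basal lamina, 1 for anchoring and 1 for protein kinase A, while the share of all genes called went from 5.63% to 2.07%.

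In the coordinates of the deposited table (mm10), the 10 genes are Agrn at chr4:156165290-156197488 (minus strand), Lrp4 at chr2:91457531-91513901 (plus strand), Musk at chr4:58285962-58374303 (plus strand), Dok7 at chr5:35057084-35087831 (plus strand), Rapsn at chr2:91035627-91045729 (plus strand), Colq at chr14:31523084-31577383 (minus strand), Ache at chr5:137288277-137294463 (plus strand), Lamb2 at chr9:108479862-108490530 (plus strand), Etv5 at chr16:22381313-22439570 (minus strand) and Prkar1a at chr11:109650949-109669648 (plus strand). Values are summed over each whole locus, so isoforms and untranslated parts cannot be told apart. Reads of overlapping genes could add to 3 members. In the GENCODE M21 annotation, 5.23% of the exon bases of Colq overlap Gm49387 on the same strand, 2.12% of those of Ache overlap Gm42456 on the other strand and 0.222% of those of Rapsn overlap Gm13778 on the other strand. No source used here says whether counting used strand.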

How the data were processed

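RNA of EDL muscle was sequenced after library preparation with a TruSeq v2 kit, per the labels' protocols, and the submitters' processing notes name the build mm10. The authors deposited estimated counts per gene locus, not scaled for depth, in a table whose header names RefSeq and a re-alignment (per the file headers); 25.5% to 29.3% of the values above 0 were whole within 0.001. For the aligner, the counter and the use of strand: not given in the sources used here.

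Estimated counts were rounded, filtered by filterByExpr over 4 vector-by-sex groups, scaled by TMM and tested with robust quasi-likelihood fits (edgeR 4.0.16 in R 4.3.3) with vector and sex in the model. Interactions came from a 4-group model (sex) and from a model of vector, age, their product and sex (age, added after the values were seen). P-values were adjusted by Benjamini-Hochberg over all genes tested, with a threshold of 0.05. An SE is the log2 fold change divided by the root of F. P-values measure the spread between animals. The numbers given to replicates only name animals. Correlations were of log2 CPM (prior count 2), with 100000 resamples (1e+05) in a two-sided permutation test. DESeq2 1.42.0 and limma 3.58.1 were alternatives, beside other scalings, filters, an age term, single ages and animals left out.

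The members and the lists were chosen with earlier results of these data known. Named were the 10 members, up to 3 genes of smallest p per list and comparison, the 3 genes most similar to each of Agrn, Musk, Rapsn and Ache (1 of them is not reported here), and, chosen after its values were seen, Myog. The script was tested on simulated data.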

Additional observations from a re-analysis of the deposited data

Results flagged for a closer look

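Musk in Hand2-vector replicate 3, a female of 22 months, was 7.49 CPM, where the next animal of that group was at 4.88 CPM. The gap was 0.659 of the range of the 7 animals, beyond the limit for a single outlying value. Dok7 was also highest of its group in this animal, at 38.9 CPM. Of 20 groups of animals examined (10 members in 2 vector groups) 1 was marked in this way, and chance marks about 1 in 20.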

How the results depend on the processing

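Each member's log2 fold change was recomputed under 25 to 29 alternatives per comparison: 280 of 290 values kept direction and side of the threshold between vectors, 264 of 280 between sexes, 240 of 260 in the vector by sex interaction and 234 of 250 in the vector by age interaction. For the changes below the cause was not tested. Between vectors, 22-month animals alone gave 0.74 for Musk, 0.393 for Dok7 and -0.004 for Lamb2, and 23-month animals alone 0.062 for Colq, -0.003 for Etv5 and 0.092 for Prkar1a. Without empty-vector replicates 3 to 5, Musk was 0.142 and Dok7 0.075; without the Hand2 females of 22 months Prkar1a was 0.034. Leaving out 1 animal gave -0.056 to 0.005 for Agrn, -0.347 (without Hand2-vector replicate 3) to -0.05 (without empty-vector replicate 4) for Musk, -0.353 (without Hand2-vector replicate 3) to -0.078 (without Hand2-vector replicate 1) for Dok7 and 0.062 (without Hand2-vector replicate 7) to 0.144 (without Hand2-vector replicate 4) for Lamb2. DESeq2 called 1 gene between vectors, and leaving out 1 animal gave 0 to 1 (1 without Hand2-vector replicate 6).

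Between sexes, Musk was -0.077 with an age term, -0.092 in 23-month animals and -0.096 to 0.149 with 1 animal left out, and Colq was 0.005 in 22-month animals. DESeq2 called 1271 genes. Counts were 24 genes and 0 members in 22-month animals, 413 genes and 2 members in 23-month animals, 291 genes without empty-vector replicates 3 to 5, 264 genes and 2 members without the Hand2 females of 22 months, and 476 to 952 genes and 1 to 2 members with 1 animal left out. limma-voom called 2 members. The counts under single ages and left-out groups come from fewer animals.

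In the vector by sex interaction, without empty-vector replicates 3 to 5 Musk was -1.077, Colq 0.578, Dok7 -0.315, Rapsn 0.041 and Etv5 -0.112. Without the Hand2 females of 22 months Lrp4 was -0.095, Musk 0.161, Colq -0.154, Etv5 -0.039 and Prkar1a -0.041. Leaving out 1 animal gave -0.108 to 0.22 for Lrp4, -0.446 to 0.13 for Musk, -0.024 to 0.604 for Dok7, 0.369 to 0.739 for Colq, -0.113 to 0.098 for Lamb2 and -0.015 to 0.098 for Etv5. In the vector by age interaction, DESeq2 called 560 genes and 2 members, limma-voom 151 genes and 1 member; 7 genes were called without empty-vector replicates 3 to 5 and 1 without the Hand2 females of 22 months, where Agrn was -0.077 and Ache -0.141. Leaving out 1 animal gave 0 to 156 genes, 0 to 1 members, -0.055 to 0.056 for Agrn and -0.007 to 0.212 for Ache.

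With vector and sex not removed, 0 pairs of members were called. Interactions were not run within single ages. Musk, at 2.19 to 8.15 CPM, had the fewest reads of the members, from 47 to 231 per library. Its spread between animals beyond counting error was 31%.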
